A study of Mus musculus with 13 samples.

Results

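The genes described here encode the machinery of MHC class II antigen presentation. They were fixed by a list of 10 gene symbols, matched to the platform's gene symbols, and 9 of the 10 were matched to a probe set out of 19505 genes with a named probe set: H2-Aa, H2-Ab1, H2-Eb1, Ciita, H2-DMa, H2-DMb1, H2-DMb2, H2-Oa and H2-Ob. Each of the 9 had 1 probe set. Cd74, the gene of the invariant chain, was matched to no probe set by symbol, so it is not analysed here. RNA of washed colon or ileum came from female FVB mice that carried a mammary carcinoma expressing human HER2, a growth factor receptor, and was hybridised to Affymetrix mouse arrays. The 13 arrays fall into 4 groups. These are colon without antibiotic (4 arrays, numbered 1, 2, 3 and 5), colon with vancomycin (11, 13 and 14), ileum without antibiotic (1, 2 and 3) and ileum with vancomycin (11, 13 and 14). Vancomycin, an antibiotic against Gram-positive bacteria, was given at 200 mg/L in the drinking water from 4 weeks of age. The mice of all groups bore tumours, so no group shows a gut without one, and mice were killed at 9 weeks, counted from a start that the labels leave unclear, when tumours measured 150 mm3. Values are RMA log2 values, and a change is a difference of group means on that scale with its standard error (SE).

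Class II molecules are pairs of an alpha and a beta chain that display peptides from endosomes to CD4 T cells. Dendritic cells, macrophages and B cells make them constitutively, and the epithelium of the small intestine makes them under the influence of interferon gamma and of the microbiota. The invariant chain fills the groove of new molecules, H2-DM removes its remnant and edits the bound peptides, and H2-O, found chiefly in B cells, restrains H2-DM. Ciita is the coactivator that switches the whole set on. It does not bind DNA itself but joins a complex of RFX, CREB and NF-Y factors on a pair of promoter elements, the X box and the Y box.

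Promoter sequences of members are shown first because Ciita acts through the X box and the Y box. RefSeq promoter windows (GRCm38.p6, C57BL/6J sequence and not that of FVB, from 250 bases before to 50 after each start) were matched for 7 of the 9 genes, with 8 windows in all because H2-DMa has 2. Each window was searched on both strands for the Y box as TGATTGG, whose last 5 letters are the reverse complement of the NF-Y motif CCAAT, and for an X box core GNAAC beginning 15 to 40 bases before it. Both forms were chosen after the windows had been read. TGATTGG occurred in 6 of the 8 windows, those of 6 of the 7 genes, and in 7.82% of all 32851 windows. An X core before it was present in 5 of the 8 windows, those of 5 of the 7 genes, and in 0.682% of all windows. Neither H2-DMa window held TGATTGG. Capitals mark TGATTGG and, where present, GNAAC, in 55 bases of chromosome 17 that end before the annotated start.
H2-Aa, chr17:34287859-34287913, minus strand: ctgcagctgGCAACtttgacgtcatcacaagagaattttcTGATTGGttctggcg
H2-Eb1, chr17:34305766-34305820, plus strand: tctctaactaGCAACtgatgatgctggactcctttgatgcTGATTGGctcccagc
H2-DMb1, chr17:34153088-34153142, plus strand: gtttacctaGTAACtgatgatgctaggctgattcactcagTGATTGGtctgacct
H2-DMb2, chr17:34145117-34145171, plus strand: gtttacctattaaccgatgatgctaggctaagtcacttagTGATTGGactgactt
H2-Oa, chr17:34092294-34092348, plus strand: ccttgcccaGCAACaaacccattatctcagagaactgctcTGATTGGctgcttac
H2-Ob, chr17:34238806-34238860, plus strand: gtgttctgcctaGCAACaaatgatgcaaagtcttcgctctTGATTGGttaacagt
The X core began 28 to 31 bases before the Y box in the 5 genes that had it. These are matches of letters in the reference genome and not measured binding.

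The tissues were told apart by their markers: the mean of 10 ileal enterocyte genes was 14.97 to 16.03 in the ilea and 7.99 to 9.06 in the colons. Array 11 of the vancomycin ileum stood apart from its group. Its mean over 13 B cell genes was 10.55, against 7.55 to 8.36 in the other 5 ilea, its mean over 9 genes of all leucocytes was 11.45 against 9.39 to 10.10, and its smooth muscle mean was 14.64 against 12.97 to 13.64. Its epithelial mean was 14.31 against 14.77 to 14.95. Results that rest on this array are therefore given with and without it. Whether each array stands for a mouse of its own is not in the labels, and p-values refer to the spread among these arrays, part or all of which may be technical. Negative control probe sets had a median of 8.08, beside 8.04 for the named probe sets, so no level is called detected or absent. The 95th percentile of the control means was 12.21, and 87.1% of the named probe sets lay below it.

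The first comparison asked how vancomycin changed the class II genes of the ileum. The genes of the classical chains fell. H2-Eb1, a beta chain, fell by 2.93 ± 0.31 (SE, 3 against 3 arrays). H2-Ab1, another beta chain, fell by 2.11 ± 0.25, and H2-Aa, its alpha partner, fell by 1.67 ± 0.25. H2-DMa, the alpha chain of the peptide editor, fell by 2.73 ± 0.33. Of the 9 genes, 7 had lower means and 4 passed the adjusted threshold of 0.05, all lower, where 0.485% of all 19572 probe sets passed as lower. The members' median difference was -1.67, beside 0.02 over all probe sets. In 6 of the 9 the vancomycin ilea lay wholly below the ilea without antibiotic, which 8.34% of all probe sets did. In bulk tissue, fewer class II cells and less class II RNA per cell cannot be told apart.

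**Figure D1:**
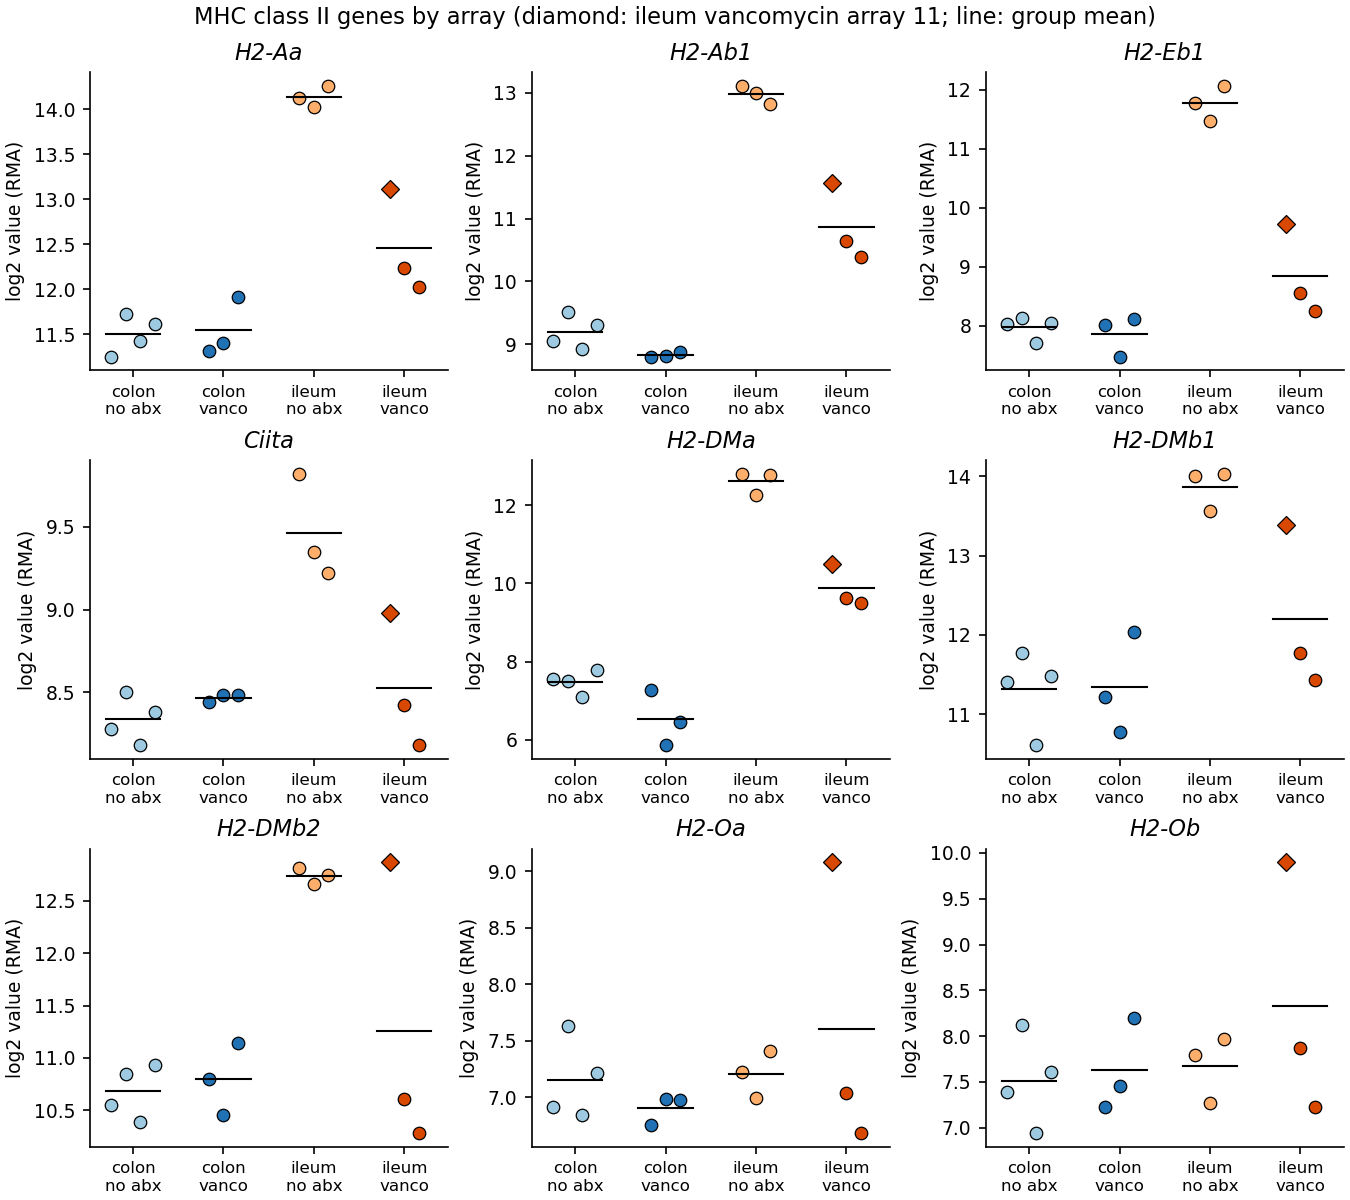
RMA log2 value (vertical axis, its own range in each panel) of each of the 9 class II genes in each of the 13 arrays, by tissue and treatment (vanco, vancomycin; no abx, no antibiotic); lines are group means and the diamond is array 11 of the vancomycin ileum. The ilea without antibiotic stand above every colon array for 7 genes, and the diamond is the highest vancomycin ileum in each of the 9 panels.

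H2-Eb1 was at 11.78, 11.47 and 12.07 in ilea 1, 2 and 3 without antibiotic and at 9.73, 8.55 and 8.25 in vancomycin ilea 11, 13 and 14 (adjusted p = 0.000406 in limma). The groups did not overlap, and vancomycin ileum 11 was the nearest to the ilea without antibiotic. H2-Ab1 was at 13.11, 13 and 12.82 without antibiotic and at 11.56, 10.64 and 10.39 with it (adjusted p = 0.000739). H2-Aa was at 14.12, 14.02 and 14.26 against 13.11, 12.24 and 12.03 (adjusted p = 0.00571). In all 3 genes the ilea without antibiotic lay close together, with an SD of 0.12 to 0.30, and the vancomycin ilea were wider, with an SD of 0.57 to 0.78, because array 11 was the highest.

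H2-DMa was at 12.80, 12.26 and 12.78 in the ilea without antibiotic and at 10.50, 9.64 and 9.50 with vancomycin (adjusted p = 0.000947). Its partner chains showed a less even pattern. H2-DMb1, a beta chain of the editor, was at 14.01, 13.56 and 14.03 without antibiotic and at 13.39, 11.77 and 11.43 with it, a difference of -1.67 ± 0.45 that did not pass (adjusted p = 0.161). H2-DMb2, the other beta chain, was at 12.81, 12.66 and 12.75 against 12.87, 10.61 and 10.28, at -1.49 ± 0.48 (adjusted p = 0.275). Array 11 alone kept the H2-DMb2 groups from separating, since it was higher than every ileum without antibiotic. H2-DMb1 and H2-DMb2 are neighbouring paralogs, and how far their probe sets detect each other's transcript was not tested.

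Ciita, the coactivator, was at 9.82, 9.35 and 9.22 without antibiotic and at 8.98, 8.42 and 8.18 with vancomycin. Its groups did not overlap, and its difference of -0.94 ± 0.20 did not pass in limma (adjusted p = 0.0633). Of 12 alternative fits 3 called it, among them that with every array centred on its median (-0.96, adjusted p = 0.0378). The other 9 did not, and in the limma fit of the 2 groups alone its adjusted p was 0.327.

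H2-Oa and H2-Ob, the chains of the H2-DM inhibitor, showed no fall beside these genes. H2-Oa was at 7.22, 6.99 and 7.41 without antibiotic and at 9.08, 7.04 and 6.68 with it (0.39 ± 0.45, adjusted p = 0.801). H2-Ob was at 7.79, 7.27 and 7.97 against 9.90, 7.87 and 7.23 (0.66 ± 0.52, adjusted p = 0.696). Arrays 13 and 14 lay within or just below the range without antibiotic, while array 11 was far above it for both. Without array 11 the differences of H2-Oa and H2-Ob were -0.35 and -0.13, so their sign depends on that array. Their means without antibiotic, 7.21 and 7.68, lay below the negative control median of 8.08, so a fall might not have been measurable.

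Array 11 was above both other vancomycin ilea in all 9 genes, by unequal amounts. For the 7 genes whose mean without antibiotic exceeded the mean of arrays 13 and 14 by over 1, its height above arrays 13 and 14 can be given as a percent of that gap. H2-DMa stood at 30.6%, H2-Eb1 at 39.4%, H2-Ab1 at 42.5%, H2-Aa at 48.8% and Ciita at 58.5%. H2-DMb1 stood at 79.0% and H2-DMb2 at 106%. The median of the 7 was 48.8%, beside 16.7% over the 172 probe sets with such a gap, whose quartiles were -18.6% and 71.3%. As a log2 excess over arrays 13 and 14, the classical chains, Ciita and H2-DMa lay 0.68 to 1.33 higher in array 11, H2-DMb1 1.79, H2-Oa 2.22, H2-Ob 2.35 and H2-DMb2 2.42. The 13 B cell genes were all higher in array 11, by up to 4.41 (median 3.10), the 9 leucocyte genes by a median of 2.34 and the 10 smooth muscle genes by 1.27, while the epithelial median was -0.50 and that of ileal enterocytes -0.83. The part of these cell types in the values of array 11 was not tested.

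**Figure D2:**
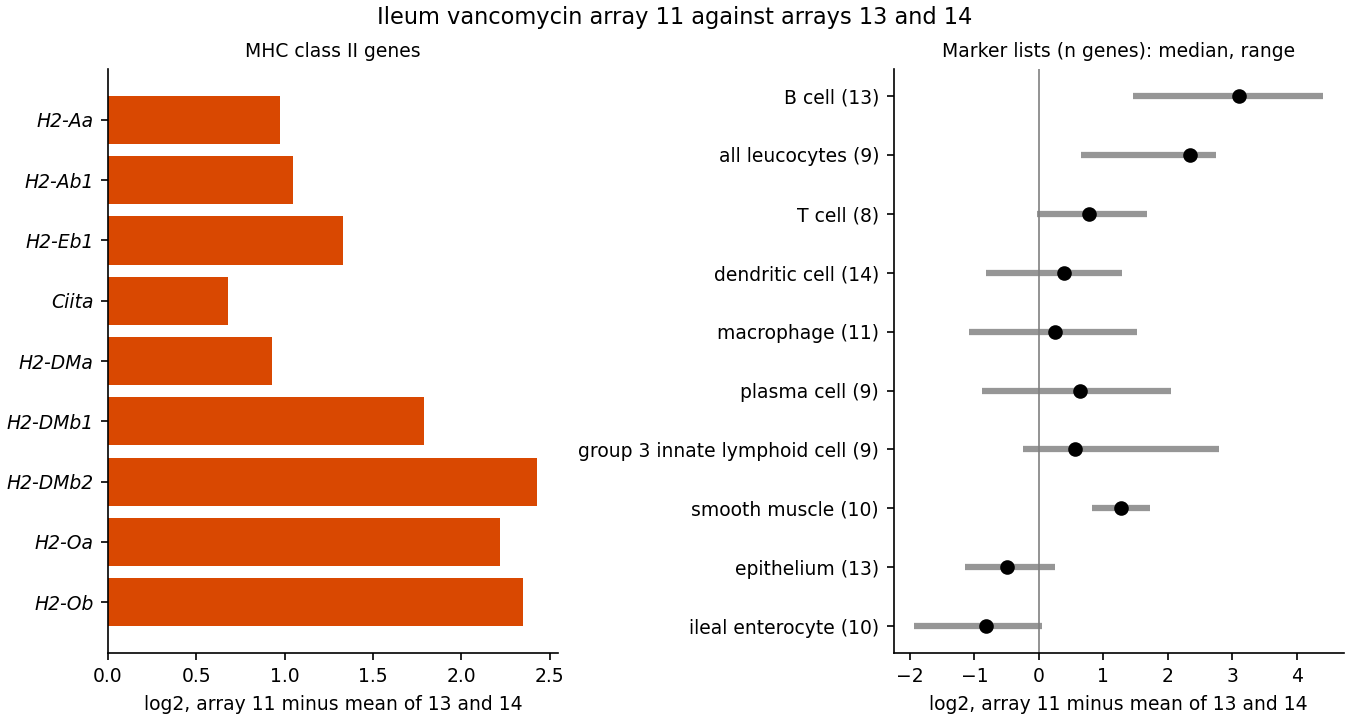
Log2 value of ileum vancomycin array 11 minus the mean of arrays 13 and 14, for the 9 class II genes (left, bars) and for marker lists of cell types (right; points are medians over the genes of a list, lines their range, number of genes in parentheses). The bars run from 0.68 for Ciita to 2.42 for H2-DMb2, and the B cell list is the highest of the lists drawn, with a median of 3.10.

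Without array 11 the contrast in the ileum was larger for each of the 7 genes of chains, editor and coactivator. Array 11 was the highest vancomycin ileum in each of them, so leaving it out had to enlarge each fall. The array was singled out with earlier results in view, so the calls without it are a description and not a further test. All 7 passed, where 0.664% of all probe sets passed as lower in that fit: H2-Eb1 at -3.37 ± 0.23, H2-DMa at -3.04 ± 0.32, H2-Ab1 at -2.46 ± 0.18, H2-DMb2 at -2.30 ± 0.22 (against -1.49 with the array), H2-DMb1 at -2.27 ± 0.35, H2-Aa at -2.00 ± 0.20 and Ciita at -1.16 ± 0.18. The calls of H2-Eb1, H2-Ab1, H2-Aa and H2-DMa were kept whichever of the 6 ileal arrays was left out. A fit of the ileum arrays alone, which does not borrow the spread of the colon, kept H2-DMa (adjusted p = 0.0293) and lost H2-Eb1 (0.0503), H2-Ab1 (0.0576) and H2-Aa (0.113); it called 20 probe sets in all, where the fit of all arrays called 105.

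**Figure D3:**
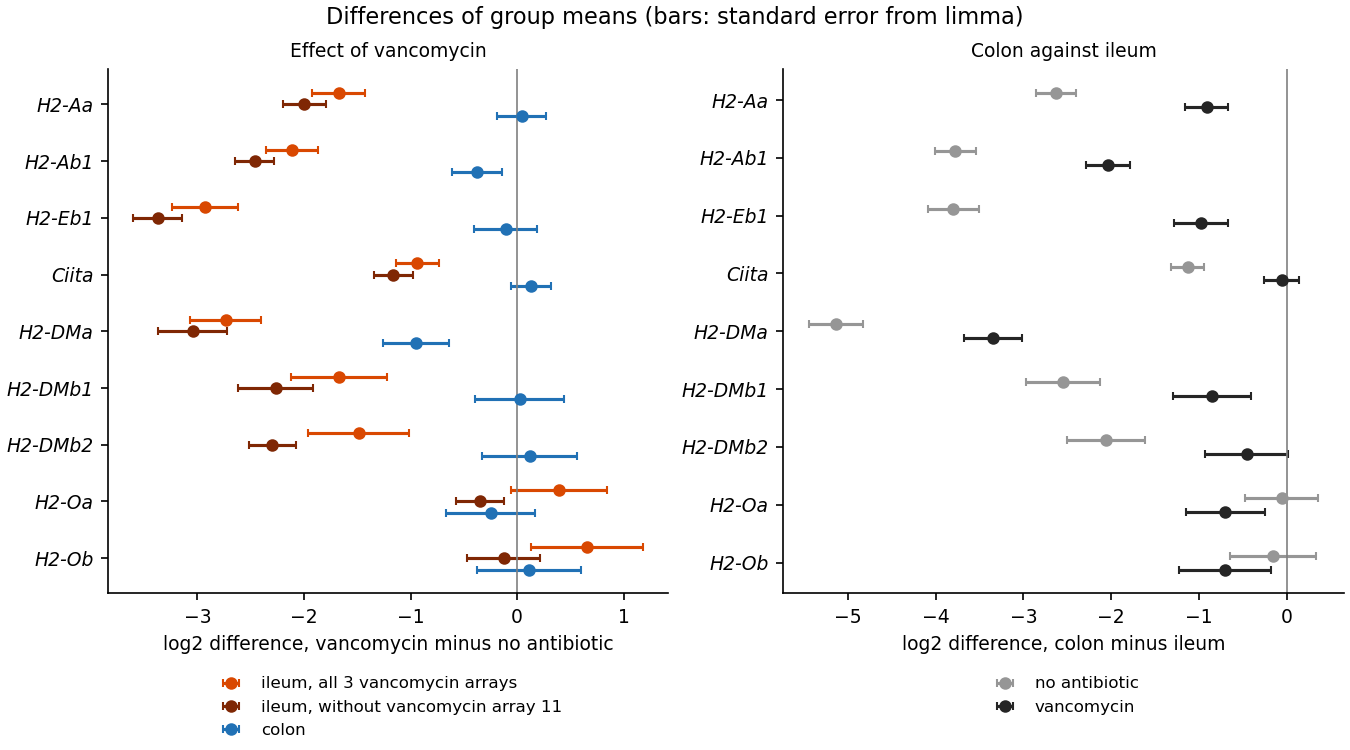
Log2 differences of group means for the 9 class II genes, with standard errors from limma as bars. Left, vancomycin minus no antibiotic in the ileum with all arrays, in the ileum without array 11, and in the colon; right, colon minus ileum without antibiotic and with vancomycin. The ileal differences of 7 genes lie between -0.94 and -2.93 with all arrays, and the colon differences of all but H2-DMa lie between -0.38 and 0.13.

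In the colon the same treatment changed none of the 9 genes past the threshold, where 0.0102% of probe sets, 2 in number, passed in limma. Of the 9 genes 1 had an unadjusted p under 0.05, and 3107 of all 19572 probe sets did. That gene was H2-DMa, at 7.56, 7.50, 7.09 and 7.78 without antibiotic and 7.28, 5.87 and 6.46 with vancomycin, a difference of -0.95 ± 0.31 (adjusted p = 0.189). Its groups overlapped through vancomycin colon 11. H2-Ab1 was at 9.06, 9.52, 8.93 and 9.30 against 8.80, 8.81 and 8.87, a difference of -0.38 ± 0.23 (adjusted p = 0.441). Its groups did not overlap, and the share of all probe sets without overlap in the colon was not counted. H2-Aa (0.04 ± 0.23) and H2-Eb1 (-0.11 ± 0.29) had nearly the same means in both colon groups. So did Ciita (0.13 ± 0.19), H2-DMb1 (0.03 ± 0.42) and H2-DMb2 (0.12 ± 0.44), and H2-Oa and H2-Ob stood at -0.25 ± 0.42 and 0.12 ± 0.49. The median of the 9 was 0.03, beside 0.02 over all probe sets. The SE of 0.19 to 0.49 limits what could be seen here. So may the background, since the colon means without antibiotic of H2-Eb1 (7.98), H2-DMa (7.48), H2-Oa (7.15) and H2-Ob (7.51) lay below the negative control median of 8.08, and whether a further fall could show there was not tested. The colon group means of all 9 genes lay below the 95th percentile of the control means, 12.21. In each colon group 1 array had the highest mean over the 9 genes, array 2 without antibiotic (9.31) and array 14 with vancomycin (9.13). They were not the highest in every member: H2-DMa and H2-DMb2 were highest in array 5 without antibiotic, and with vancomycin H2-DMa was highest in array 11 and H2-Oa in array 13. The same 2 arrays had the highest means of their groups for B cells (8.97 and 9.12), all leucocytes (9.8956 and 9.9989), T cells (7.90 and 7.96) and group 3 innate lymphoid cells (7.45 and 7.59). For dendritic cells, macrophages and plasma cells the highest colon without antibiotic was array 5 (7.72, 9.02 and 9.34). In those same lists array 14 was the lowest vancomycin colon (7.59, 8.50 and 8.52). The part of these cells in the values was not tested.

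Whether the effect differed between the tissues was tested as the ileal difference minus the colon difference. H2-Eb1 passed, at -2.82 ± 0.43 (adjusted p = 0.0165), the only 1 of the 9 to do so, where 0.158% of all probe sets passed as lower. H2-DMa (-1.79 ± 0.45), H2-Ab1 (-1.74 ± 0.34), H2-Aa (-1.72 ± 0.34), H2-DMb1 (-1.70 ± 0.61), H2-DMb2 (-1.60 ± 0.65) and Ciita (-1.07 ± 0.28) were negative too and did not pass, with adjusted p from 0.0726 for H2-Ab1 to 0.538 for H2-DMb2. H2-Oa and H2-Ob were at 0.64 ± 0.61 and 0.54 ± 0.72. The colon values of H2-Eb1 lay between 7.47 and 8.13, around or below the negative control median of 8.08, so an equal fall in the colon might not have been measurable. Without ileum vancomycin array 11, 7 of the 9 passed, where 0.327% of all probe sets passed as lower, from -3.27 for H2-Eb1 to -1.30 for Ciita. Leaving out the highest vancomycin ileum had to make each difference more negative, so these calls too are a description. With the array number as a random block across tissues H2-Ab1 passed as well (adjusted p = 0.0465). The call of H2-Eb1 was lost without colon vancomycin array 14 (adjusted p = 0.0665) and without ileum array 1 (0.0542) or 3 (0.0815) of the group without antibiotic.

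The levels in the 4 groups had a common order for most members. Without antibiotic the colon was below the ileum in 9 of 9 means and past the threshold in 7, where 9.59% of all probe sets passed as lower in colon. H2-DMa stood at -5.13 ± 0.31 (colon 7.48 ± 0.29, SD, n = 4; ileum 12.61 ± 0.31, n = 3). Its colon level and that of H2-Eb1 lay below the negative control median, and sizes are not ranked between probe sets. H2-Eb1 stood at -3.80 ± 0.29, H2-Ab1 at -3.77 ± 0.23, H2-Aa at -2.63 ± 0.23, H2-DMb1 at -2.55 ± 0.42, H2-DMb2 at -2.06 ± 0.44 and Ciita at -1.13 ± 0.19. H2-Oa (-0.06 ± 0.42) and H2-Ob (-0.16 ± 0.49) had similar means in both tissues, all of them below the negative control median. For H2-Aa, H2-Ab1, H2-Eb1, H2-DMa and H2-DMb1 the means stood in the order ileum without antibiotic, ileum with vancomycin, then colon, with or without ileum vancomycin array 11. For Ciita and H2-DMb2 the vancomycin ileum stood above the colon only with that array: the means of arrays 13 and 14 were 8.30 and 10.45, below those of both colon groups (8.34 and 8.47 for Ciita, 10.68 and 10.80 for H2-DMb2).

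With vancomycin in both tissues, the colon was below the ileum past the threshold in 4 of the 9, where 7.67% of all probe sets passed as lower. These were H2-DMa (-3.34 ± 0.33), H2-Ab1 (-2.04 ± 0.25), H2-Eb1 (-0.98 ± 0.31, adjusted p = 0.0493) and H2-Aa (-0.91 ± 0.25, adjusted p = 0.0222). Fitted as pairs of equal array number, the comparison kept H2-DMa and H2-Ab1 and lost H2-Eb1 (adjusted p = 0.113) and H2-Aa (0.146). Both were also lost without ileum vancomycin array 11, where H2-Eb1 stood at -0.53 (adjusted p = 0.122) and H2-Aa at -0.59 (0.0545). Both were lost without colon vancomycin array 11 or 13 as well, and H2-Eb1 also without colon vancomycin array 14 or ileum vancomycin array 13. Vancomycin ileum and colon were not distinguished for Ciita (8.53 ± 0.41 against 8.47 ± 0.02, SD, n = 3 each), for H2-DMb1 (12.20 ± 1.05 against 11.34 ± 0.63) or for H2-DMb2 (11.25 ± 1.41 against 10.80 ± 0.34). Both tissue comparisons share their arrays with the vancomycin comparisons above.

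Other genes of the pathway were followed in the ileum by lists. Of 14 measured genes of class II transcription and interferon gamma input, 0 passed in limma, 9 were lower and the median was -0.16. Without array 11, 7 were lower and 7 higher (median -0.0025). Irf1, an interferon-induced factor, was at -1.23 ± 0.29 (adjusted p = 0.0868) and passed without array 11 (-1.41, adjusted p = 0.0451). Rfx5, which binds the X box, stood at 0.09 ± 0.17, and Ifng, the gene of interferon gamma itself, at -0.31 ± 0.18. Of 8 genes of endosomal proteases, the reductase Ifi30 and the protease inhibitor Cst3, 0 passed and the median was 0.13 (0.06 without array 11). Ctss, which trims the invariant chain, stood at -0.23 ± 0.23. Of 9 genes of class II turnover and costimulation, Cd274, which encodes the inhibitory ligand PD-L1, fell by 2.30 ± 0.35 (adjusted p = 0.00664), and 0 of the other 8 passed. Of those 8, 7 had higher means with array 11; without it the list had 6 lower and 3 higher, Cd274 included, with a median of -0.17. H2-Eb2, a further beta chain gene beside H2-Eb1, was at -0.27 and did not pass.

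Cells that carry class II were compared by their markers in the same contrast. Of 14 dendritic cell genes 7 were lower and 7 higher (median 0.04), and 2 passed. Of these 2, Irf8, a factor of dendritic cell development, fell by 1.41 ± 0.24. Itgae, which intraepithelial T cells also carry, fell by 1.37 ± 0.20. Without array 11 the list again had 7 lower and 7 higher (median 0.01). The median of 11 macrophage genes was 0.00 with 0 past the threshold, and their list means were 8.79 to 9.01 in the ilea without antibiotic and 8.77 to 9.16 with vancomycin. With array 11, 5 of the 11 were lower, and without it 8 were (median -0.08), again with 0 past the threshold. The 13 B cell genes all had higher means (median 0.65, 0 past the threshold), and 11 of 13 had lower means without array 11 (median -0.17). Of 9 genes of all leucocytes, 7 were higher with array 11 and all 9 lower without it (medians 0.07 and -0.48, 0 past the threshold either way). Of 8 T cell genes 7 were lower (median -0.70), and Cd6 fell by 1.19 ± 0.23. Without array 11 all 8 were lower (median -1.06) and 3 passed; the list means were 9.41 to 9.89 without antibiotic and 8.41 to 9.31 with vancomycin. Of 9 plasma cell genes 8 were lower (median -0.53), and Prdm1 fell by 1.59 ± 0.31 (adjusted p = 0.0397). Without array 11 all 9 were lower (median -0.65) and 3 others passed, while Prdm1 did not (-1.29, adjusted p = 0.0703). Of 13 epithelial genes 10 were lower (median -0.22), and only Elf3, an epithelial factor, passed, with a fall of 1.08 ± 0.21. Without array 11 the epithelial list had 7 lower and 6 higher (median -0.0033), and Elf3 (-1.17) was again the only 1 to pass. The median of 9 genes of group 3 innate lymphoid cells was 0.17, with 2 lower and 7 higher. Without array 11 it was -0.265, with 5 lower and 4 higher, and 0 passed the threshold either way. The 10 smooth muscle genes all had higher means (median 0.78, and 0.36 without array 11). The part of any of these lists in the class II differences was not tested.

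The members were also compared with each other over the 13 arrays, each centred on its tissue mean, as a description. Against the mean of the other 8, H2-DMb1 had a Pearson r of 0.96, H2-DMb2 0.95, H2-Aa 0.93, H2-Ab1 and H2-Eb1 0.90, Ciita 0.89 and H2-DMa 0.79. H2-Oa (0.33) and H2-Ob (0.21) followed the rest least, and without antibiotic their means lay below the negative control median in both tissues. The genes outside the list with the highest r to the mean of the 9 were H2-M3, a non-classical class I gene (0.96), Pik3ap1 (0.94), Trat1 (0.92), Emb (0.91) and Prkch (0.91). None of these 5 passed in the ileum, where their differences ran from -1.24 for Pik3ap1 to -0.72 for Trat1. All points of these correlations share the arrays and their differences in cell makeup, array 11 included. The vancomycin difference of the ileum was not removed, so genes that fell together there had to correlate in part for that reason.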

How the data were processed

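The authors deposited log2 values, 1 per probe set and array. The submitters' processing notes name RMA, and for software Affymetrix Expression Console in version 1.4.1.46. RMA corrects background, quantile-normalizes arrays and summarizes probes, which makes array totals alike and can hide a shift of most genes. Array medians were 7.98 to 8.14. For the array annotation, a genome build was not given in the sources used here. Of 28846 probe sets, the 19572 with 1 gene symbol were tested, and all matched RefSeq by Entrez identifier. A model of 4 group means over 13 arrays was fitted with lmFit and eBayes of limma 3.58.1 under R 4.3.3, with Benjamini-Hochberg adjustment over all 19572 and a threshold of 0.05. The fit was tested on simulated data.

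For a gene with several probe sets the 1 with the highest mean was used. Named are all members, in other lists the genes that passed in the ileum (at most 4), the 5 genes most alike, and some genes of known role chosen after their values were seen (Irf1, Rfx5, Ifng, Ctss and H2-Eb2). Of 167 list entries 154 were matched. Members and lists were chosen with earlier results of these data known. Array numbers are shared between tissues; deviations from group means correlated at 0.24, 0.18 and 0.11 for the 3 vancomycin pairs and at 0.08, 0.03 and -0.02 for the others, so only the vancomycin pairs met the rule for pairs (over 0.1 in every pair). The random block across tissues tied the arrays of equal number in both treatments. The alternatives were a fit of 2 groups, array weights, a prior trend, a filter on dim probe sets, median centring, the array number as a block, and each array left out. The lists without ileum vancomycin array 11 were added after the data had been seen.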

Additional observations from a re-analysis of the deposited data

Results flagged for a closer look

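The measured change of H2-Eb1 with vancomycin differed between the tissues. Its ileal difference minus its colon difference was -2.82 ± 0.43 (SE), which passed a test of that difference in limma (adjusted p = 0.0165). The call was lost in 3 of 18 alternative limma fits, each with 1 array left out (highest adjusted p 0.0815). This difference between tissues was negative in 7 of the 9 genes, of which H2-Eb1 alone passed. H2-Eb1 was lower in all 3 vancomycin ilea than in any ileum without antibiotic, and its colon groups overlapped. Its colon values, 7.47 to 8.13, lay around or below the negative control median of 8.08, so an equal fall in the colon might not have been measurable.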

How the results depend on the processing

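Of 630 recomputed differences of single members, 565 kept their direction and side of the threshold, 18 lost the call, 21 gained it and 26 changed sign, 0 of the last among called values. In the ileum 4 members passed; 1 did in the fit of 2 groups alone, 7 with array weights, and 4 to 7 with 1 array left out. For the difference between tissues, 1 passed; 6 did with array weights, 3 with median centring, 2 with the array number as a random replicate block (H2-Ab1 at -1.74, adjusted p = 0.0465, joined), and 0 to 7 with 1 array left out. Under vancomycin 4 members differed between tissues, 2 in the fit of 2 groups alone, 2 with the paired replicate block, and 2 to 4 with 1 array left out. The replicate block changed no other count of members. The counts in the colon (0) and between tissues without antibiotic (7) were the same in each alternative run. Over all probe sets, array weights called 1012 in the ileum, 38 in the colon and 191 for the difference between tissues, against 105, 2 and 37. Leaving out 1 array gave 40 to 172 in the ileum, 0 to 217 in the colon and 12 to 84 for the difference. Those extremes were without array 3 of the ileum without antibiotic (40) and ileum vancomycin array 11 (172), without arrays 2 (0) and 3 (217) of the colon without antibiotic, and, for the difference, without colon vancomycin array 13 or ileum array 3 without antibiotic (12 each) and ileum vancomycin array 11 (84). Without colon vancomycin array 11, 109 were called in the colon. The median height of array 11 in the gap was 40.3% to 51.4% under its alternatives. Of the arrays without antibiotic, not every colon array correlated best with the ileum of its number. No member had several probe sets, so another choice of probe set was not run.

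Signs changed as follows, ranges being over the arrays left out in turn. In the ileum H2-Oa was at -0.0719 with array weights and ran from -0.35 (without vancomycin array 11) to 0.85, and H2-Ob from -0.13 to 1.21. In the colon, array weights gave -0.15 for H2-DMb1 and -0.0099 for H2-Ob; leaving out 1 array gave -0.145 to 0.155 for H2-Aa, -0.32 to 0.31 for H2-DMb1, -0.17 to 0.32 for H2-Ob, -0.23 to 0.09 for H2-Eb1 and -0.0550 to 0.29 for H2-DMb2. The difference between tissues ran from -0.0992 to 1.10 for H2-Oa and from -0.24 to 1.09 for H2-Ob, lowest without ileum vancomycin array 11. For colon minus ileum without antibiotic, H2-Oa was at 0.0119 with array weights and ran from -0.22 to 0.0433, and H2-Ob from -0.365 to 0.03. For colon minus ileum with vancomycin, array weights gave 0.0447 for Ciita and 0.0483 for H2-DMb2, and the range was -0.23 to 0.17 for Ciita, -0.94 to 0.35 for H2-DMb2, -1.16 to 0.04 for H2-Oa and -1.255 to 0.08 for H2-Ob, highest without ileum vancomycin array 11. The causes were not tested. Groups of 3 or 4 arrays limit the precision of every value, and signal over background is unknown.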
